A study of Mus musculus with 15 samples.

Results

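The miRNA profile of the mouse salivary gland was compared with the profiles of 11 other tissues sequenced beside it. These tissues are taken as adult because their titles do not name embryos. Salivary gland was 1 of the 15 small RNA libraries of the series, and the comparison took in the 12 libraries that are not of embryos: salivary gland, brain, eye, heart, kidney, liver, lung, smooth muscle, spinal cord, spleen, stomach and testis. Every library was made from total RNA of a commercial mouse tissue panel (Mouse Total RNA Master Panel, Takara) by AQ-seq, a small RNA protocol whose adapters have randomized ends to lower ligation bias. Each tissue had 1 library. The labels name the tissue alone: no source used here states the strain, age, sex, number of animals pooled or which of the major salivary glands was taken. No treatment or allele is named for any group.

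A level is the count of a miRNA divided by all miRNA reads of its library and multiplied by 1e6 (CPM). With 1 library per tissue no difference has a replicate check and no p-value is given. Intervals in the text are exact 95% intervals for counting error only. PCR copies of 1 molecule are counted as separate reads, so the intervals may be too narrow even for that. A miRNA was compared if its mean level over the 12 libraries was at least 10 CPM, which 579 of 1492 names were. In bulk tissue RNA a lower level from fewer cells of a type and one from less of the miRNA in each cell cannot be told apart.

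The salivary gland is an exocrine organ. Its acini secrete the proteins and fluid of saliva, its ducts modify and carry the fluid, contractile myoepithelial cells surround the acini, and the stroma holds vessels, autonomic nerve endings, lymphocytes and plasma cells. Mature miRNAs guide Argonaute proteins to messenger RNAs mainly through the seed, bases 2 to 8, so miRNAs with the same seed are expected to share many targets. Either arm of a hairpin precursor, named 5p and 3p, can become the mature strand.

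The miRNAs on which the salivary gland profile turned are shown here as RefSeq gives them for GRCm38.p6, from 5′ to 3′, with the seed in capitals. The miR-148 and miR-152 strands share the seed of miR-148a-3p, the most abundant miRNA of the gland.
miR-148a-3p: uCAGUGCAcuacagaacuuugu
miR-148b-3p: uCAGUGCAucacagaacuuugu
miR-152-3p: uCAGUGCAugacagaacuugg
The miR-200 family has 2 seeds that differ within the capitals, and its 5 members come from clusters on chromosomes 4 and 6.
miR-141-3p: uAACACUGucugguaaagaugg
miR-200a-3p: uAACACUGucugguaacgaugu
miR-200b-3p: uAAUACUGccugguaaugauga
miR-200c-3p: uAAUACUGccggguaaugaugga
miR-429-3p: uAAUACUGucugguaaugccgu
A basal epithelial miRNA, a leukocyte miRNA and a pair known from the nervous system follow, since each was far above the median tissue.
miR-205-5p: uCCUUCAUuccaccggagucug
miR-142a-3p: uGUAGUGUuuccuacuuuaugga
miR-135a-5p: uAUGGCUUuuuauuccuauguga
miR-218-5p: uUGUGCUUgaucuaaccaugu
The passenger strands of the miR-218 genes tell the gene copies apart.
miR-218-1-3p: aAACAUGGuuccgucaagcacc
miR-218-2-3p: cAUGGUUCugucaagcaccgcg
The miR-10 pair shares its seed and stood on opposite sides of the median tissue.
miR-10a-5p: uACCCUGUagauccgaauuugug
miR-10b-5p: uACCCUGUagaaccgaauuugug
The strands of mir-30a are shown for the arm that each tissue kept.
miR-30a-5p: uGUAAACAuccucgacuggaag
miR-30a-3p: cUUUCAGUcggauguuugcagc

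The salivary gland library held 2083229 reads on 830 names. The other libraries held 148052 reads (testis) to 3161463 reads (brain), so testis levels are the least certain. The library labelled smooth muscle held epithelial miRNAs beside those that its label names. miR-194-5p, a miRNA of intestinal and renal epithelium, took 14.8% of its reads, the largest share there. The 3 gut and kidney miRNAs miR-192-5p, miR-194-5p and miR-215-5p summed to 279409 CPM there. In the 10 tissues other than it and salivary gland they summed to 413 to 42155 CPM. The 4 smooth muscle names, both arms of mir-143 and mir-145a, summed to 156881 CPM in the same library. Stomach alone was higher, with 268327 CPM, and testis was next below with 55535. Results that rest on this library or on testis are given with and without them. The 4 miRNAs taken as markers of the salivary gland library cannot check its label, since they were chosen with earlier results of these data known. miR-148a-3p, miR-375-3p and miR-200c-3p were higher there than in every other tissue, and miR-142a-3p was second to spleen.

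Most abundant miRNAs of the salivary gland stood near the level of the median tissue. Of 210 names with at least 100 CPM in salivary gland, 152 were within 2-fold of the median of the others. Over all 579 names the median ratio of salivary gland to the median tissue was 1.04, or 0.987 with the 71 names without a salivary gland read set to 0. A smaller set stood apart: 5 of 579 names (0.864%) were at least 2-fold above the highest other tissue, and 15 (2.59%) were above every other tissue by any margin. By the same 2-fold rule, testis had 109 names, spinal cord 19, heart 18, and brain and eye 16 each. Kidney and spleen had 8 each, stomach 6, smooth muscle 5, liver 3 and lung 1. At least 4-fold above the median tissue were 41 names (7.08%), and at least 4-fold below it 23 names (3.97%). Only 8 of the 41 were also above every other tissue. For 14 of the 41 the highest other tissue was brain, spinal cord or eye, for 11 it was stomach or smooth muscle, and for 8 it was spleen. Scaling by TMM moved the median log2 ratio of all names from 0.05 to 0.16.

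**Figure D1:**
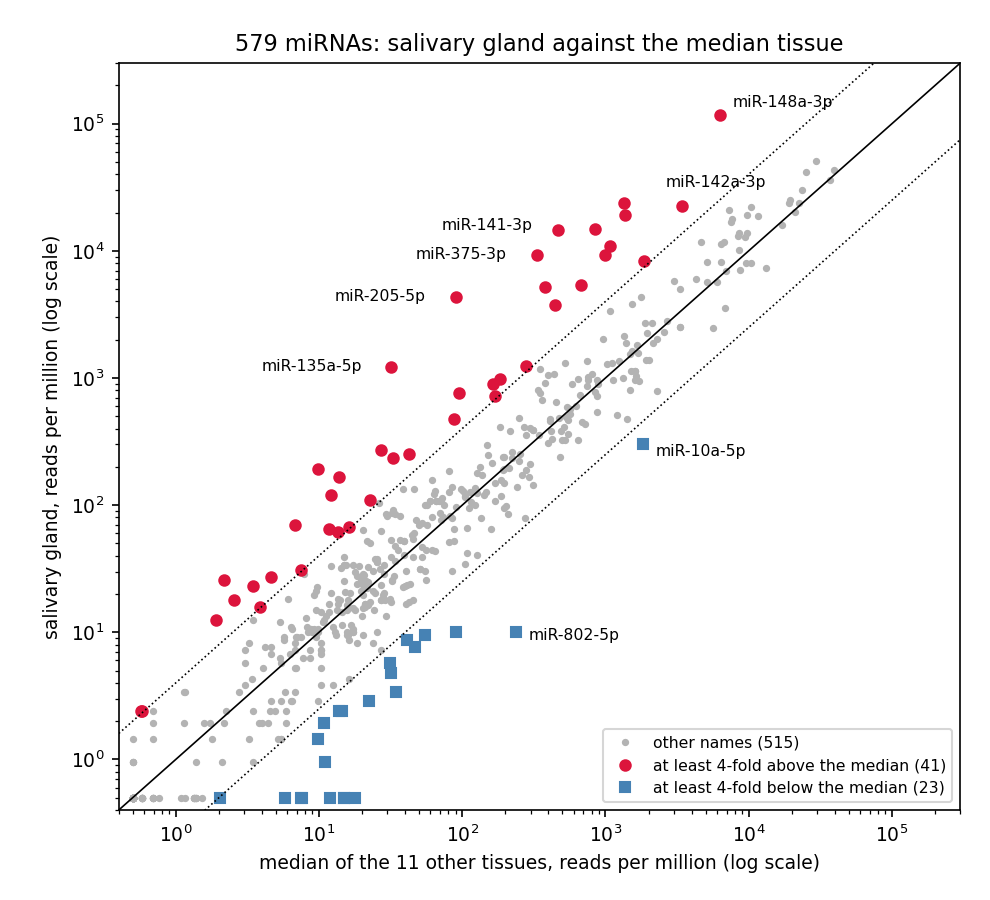
Each point is 1 of 579 miRNAs, with its median level in the 11 other tissues on the horizontal axis and its salivary gland level on the vertical axis, both in CPM on log scales, with levels under 0.5 drawn at 0.5. The solid line marks equal levels and the dotted lines 4-fold differences. The 41 names in red lie on or above the upper dotted line, led in level by miR-148a-3p at 116001 CPM, and the 23 in blue on or below the lower one, which include names without a salivary gland read that are counted at 3 reads.

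miR-148a-3p and its relative miR-152-3p set the salivary gland apart most clearly. These miRNAs are known for repressing the DNA methyltransferase Dnmt1, and miR-148a is abundant in liver, stomach and secretory epithelia. miR-148a-3p made up 11.6% of salivary gland reads, 116001 CPM (115567 to 116437). The other tissues ran from 848 CPM in brain through a median of 6315 to 23730 in liver, with stomach at 10410, smooth muscle at 9900 and testis at 9517. No other tissue came near the salivary gland level, which was 4.89-fold (4.84 to 4.94) above liver and 18.4-fold above the median.

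miR-152-3p reached 9282 CPM (9152 to 9413) in salivary gland, against 185 in brain at the lowest, a median of 996 and 1876 in kidney at the highest. It was 4.95-fold (4.75 to 5.15) above kidney and 9.32-fold above the median. The 11-, 15- and 17-day embryos had 1535, 2879 and 3583 CPM, so the margin over the highest library was smaller with the embryos added but still above 2-fold. The passenger strands of both hairpins, which are cut from the same precursors, were also highest in salivary gland. miR-148a-5p stood at 193 CPM against a median of 9.86, a 19.6-fold difference, and was 2.86-fold (1.54 to 6.02) above testis, or 4.80-fold above liver without testis. miR-152-5p stood at 70.1 CPM from 146 reads against a median of 6.75, and was 3.46-fold (1.16 to 17.0) above testis, whose 20.3 CPM rest on 3 reads. Its levels in the same embryos were 27.9, 46.8 and 41.5 CPM, and with the embryos added it was no longer 2-fold above the highest. These 4 strands, with miR-141-3p, are the 5 names counted above as 2-fold above the highest other tissue.

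The third member of the seed family, miR-148b-3p, did not share this pattern. It stood at 867 CPM in salivary gland, between a lowest of 397 in heart and a highest of 1243 in testis, with a median of 739. The sequence of miR-148a-3p differs from that of miR-148b-3p at 2 of 22 positions and from that of miR-152-3p at 3 of the 21 shared positions. Summed over the seed CAGUGCA, the family made up 12.6% of salivary gland reads, 126151 CPM, which was 16.3-fold above the median and 4.97-fold above liver. Within the family miR-148a-3p held 92% of the reads in salivary gland against a median of 79.3% elsewhere. Mir148a lies at chr6:51269812-51269910 on the minus strand of GRCm38.p6 and overlaps no annotated gene. Mir152 lies at chr11:96850393-96850465 on the plus strand in an intron of Copz2, and Mir148b at chr15:103285125-103285221 on the plus strand in an intron of Copz1. The host genes encode paralogous zeta subunits of the COPI vesicle coat.

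All 5 members of the miR-200 family were at least 4-fold above the median tissue, against 7.08% of all names. The family is a hallmark of epithelial cells, where it represses Zeb1 and Zeb2, transcription factors that repress E-cadherin. Together its members made up 7.78% of salivary gland reads, 77776 CPM, the highest sum of the 12 tissues. Stomach followed with 59725 CPM and the library labelled smooth muscle with 52587, while heart had 86.6 and spinal cord 72.7. The median ratio of the 5 members was 17.7, against 1.04 over all names.

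Of these miRNAs, miR-141-3p stood apart most. It reached 14685 CPM (14522 to 14849) in salivary gland, with 8.66 in spinal cord, a median of 467 and a highest of 3770 in smooth muscle. That was 31.4-fold above the median and 3.90-fold (3.79 to 4.0) above smooth muscle, or 4.74-fold above stomach without that library. Its cluster partner miR-200c-3p had nearly the same salivary gland level, 14803 CPM, but was only 1.15-fold (1.13 to 1.17) above smooth muscle with 12835, and 1.81-fold above stomach without it. Without both that library and testis, miR-141-3p was 65.8-fold and miR-200c-3p 35.6-fold above the median. The ratio of miR-141-3p to miR-200c-3p reads was 0.992 in salivary gland, against 0.294 in smooth muscle and 0.378 in stomach. Lung, at 1.29, and spleen, at 1.12, were higher still, and liver was close at 0.982. Mir141 (chr6:124717914-124717985) and Mir200c (chr6:124718322-124718390) lie side by side on the minus strand in an intron of the antisense gene Gm15884.

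The other cluster gave miR-200a-3p at 23911 CPM, 1.66-fold (1.63 to 1.68) above smooth muscle and 2.07-fold above kidney without that library. miR-200b-3p reached 18991 CPM in salivary gland, second to stomach with 34333, and miR-429-3p reached 5385 CPM against 5450 in smooth muscle, a ratio of 0.988 (0.961 to 1.02). Neither was above every other tissue, but miR-429-3p was the highest without smooth muscle, at 1.52-fold above kidney. Counted by seed, the pair with AACACUG, miR-141-3p and miR-200a-3p, summed to 38596 CPM and was 2.12-fold above the next tissue. The group with AAUACUG, miR-200b-3p, miR-200c-3p and miR-429-3p, summed to 39180 CPM and was 0.859 of the stomach level. Mir200b (chr4:156055681-156055750), Mir200a (chr4:156054896-156054985) and Mir429 (chr4:156053905-156053987) lie on the minus strand within Ttll10 introns.

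miR-375-3p, best known from pancreatic islets, where it restrains insulin release, and from neuroendocrine and secretory epithelia, was also highest in salivary gland. It stood at 9296 CPM (9166 to 9427), ahead of smooth muscle with 6248, stomach with 4843 and testis with 3080. Eye had 1112 CPM, spleen 635 and lung 330, and heart had 1.53. The ratio to the highest other tissue was 1.49 (1.45 to 1.52), or 1.92 without the smooth muscle library. Its 28.2-fold ratio to the median depended on which tissues were taken: it was 46.6 without any 1 of eye, smooth muscle, spleen, stomach or testis, 134 without smooth muscle and testis together, and never below 19.3 with 1 library left out. Mir375 lies at chr1:74900658-74900721 on the minus strand and overlaps no annotated gene.

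**Figure D2:**
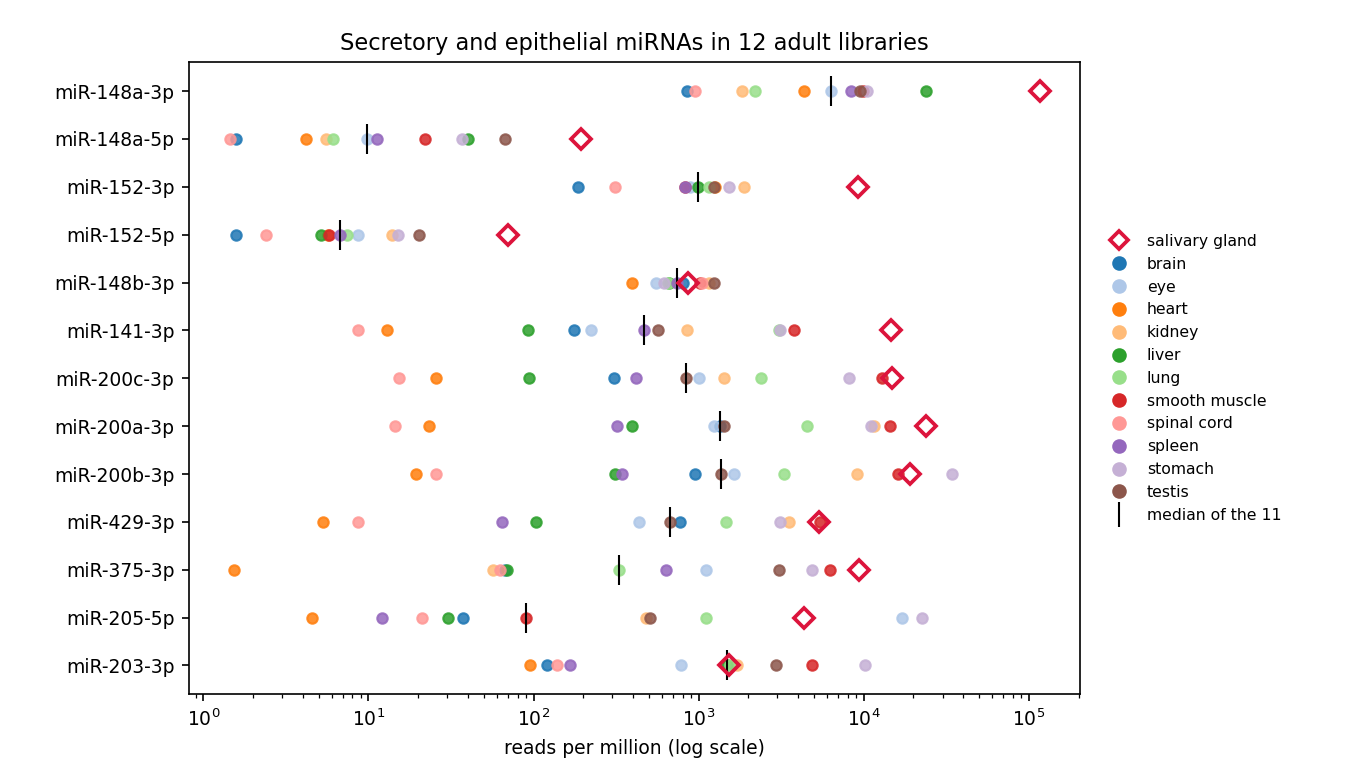
Each row is 1 miRNA and each symbol its level in 1 of the 12 libraries, in CPM on a log scale. Open red diamonds are salivary gland and black bars the median of the 11 others. The diamonds of miR-148a-3p, miR-148a-5p, miR-152-3p, miR-152-5p and miR-141-3p lie clear of all other points, those of miR-200b-3p and miR-205-5p lie below stomach, and those of miR-148b-3p and miR-203-3p lie among the other tissues.

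Of the other members of the secretory list, miR-7a-5p, a miRNA of endocrine cells and neurons, had 959 CPM against a median of 1126, and miR-7b-5p had 8.16 CPM against 6.75. miR-375-5p had no salivary gland read and did not reach the minimum level. In all, 4 of the 7 secretory members compared, against 7.08% of all names, were at least 4-fold above the median: miR-148a-3p, miR-148a-5p, miR-152-3p and miR-375-3p. Of these, miR-148a-3p and miR-148a-5p are arms of the same hairpin. The list was chosen with earlier results of these data known, so this count is a description and no independent support.

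Pancreatic acinar miRNAs were not detected in this other exocrine gland. miR-216a, miR-216b and miR-217, neighbours in 1 cluster known from the exocrine pancreas, had no read from either arm, so all 6 names were at 0 of 2083229 reads. In ratios a count of 0 was set to 3 reads, which are 1.44 CPM in this library. Their medians elsewhere were 15.0 CPM for miR-216a-5p, 15.0 for miR-216b-5p and 12 for miR-217-5p, and the highest levels were 250 in spleen, 106 in stomach and 132 in stomach. With 3 reads in place of 0, miR-216a-5p and miR-216b-5p were 10.4-fold lower than the median. All 3 names of the list that were compared were at least 4-fold below it by this rule, against 3.97% of all names. Salivary gland was the only library without a read of the list, whose sum was 1.35 CPM in lung, the next lowest, and 476 in spleen.

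Among miRNAs of stratified and basal epithelium, miR-205-5p and miR-203-3p parted. miR-205-5p, which marks basal and myoepithelial cells and also targets Zeb1 and Zeb2, stood at 4370 CPM in salivary gland (4281 to 4461). Stomach, with 22648, and eye, with 17044, were higher, and lung was next below with 1101. Salivary gland was thus the third of 12, with a wide gap to the other tissues, whose lowest was 4.58 in heart. The 48.4-fold ratio to the median of 90.3 rested on the smooth muscle library, which is that median, and ranged from 15.2 to 68.5 with any 1 library left out. Without smooth muscle and testis together it was 117. miR-203-3p, known for restraining the basal stem cell factor p63 in skin, had 1530 CPM against a median of 1487, with stomach again highest at 10125. The list had 1 of 3 compared names 4-fold above the median, against 7.08% of all names, and a median ratio of 1.22. Without smooth muscle and testis together, the median ratio of the list was 3.38 and the ratio of miR-203-3p was 1.95. Mir205 lies at chr1:193507463-193507530 on the minus strand in an exon of the lincRNA 4631405K08Rik.

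The miR-183 cluster, known from sensory cells of the eye and ear, was second to eye for all 3 members. miR-182-5p stood at 3722 CPM in salivary gland against 76810 in eye, with smooth muscle at 1619, stomach at 1305 and a median of 445. miR-96-5p had 760 CPM and miR-183-5p 987, or 7.98-fold and 5.41-fold above the median. The ratio of miR-183-5p was 2.93 without any 1 of heart, kidney, liver, lung or spleen, and 3.02 without testis. Its 4-fold difference thus did not hold in these settings. Without smooth muscle and testis together the ratio was 6.12. The median ratio of the 3 members was 7.98. The other miRNAs that mark the eye, from retina, pigment epithelium and lens, were far below their eye levels. miR-204-5p had 149 CPM against a median of 197, miR-184-3p had 22.6 CPM against 37167 in eye, and miR-211-5p had 12.5 CPM against 9839 in eye, although the last was 6.48-fold above its median of 1.92.

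Some miRNAs exceeded every other tissue by a small margin only. miR-27b-3p, which is broadly expressed and known in vessels and fat, had 17708 CPM in salivary gland, 1.42-fold (1.40 to 1.44) above lung. miR-29c-3p, of a family that represses collagens, had 21997 CPM and was 1.23-fold (1.22 to 1.25) above brain. let-7g-5p had 18895 CPM, 1.11-fold (1.10 to 1.13) above spinal cord, and miR-671-5p 187 CPM, 1.26-fold (1.06 to 1.49) above kidney. Both arms of mir-362, from an intron of Clcn5 on the X chromosome, were in this group: miR-362-3p had 1181 CPM, 1.26-fold (1.19 to 1.33) above spleen and 3.38-fold above the median, and miR-362-5p had 298 CPM, with an interval against kidney of 0.935 to 1.21 that includes equal levels. Without a second salivary gland library it is not known whether margins of this size exceed the spread between samples. The other most abundant miRNAs of the gland were common to all tissues: miR-21a-5p (50752 CPM), miR-26a-5p (42884), miR-29a-3p (41899), miR-143-3p (35813), let-7c-5p (30257), let-7f-5p (24971), miR-30c-5p (23852) and let-7a-5p (23831) were at 0.966 to 1.72 times the median tissue.

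A few miRNAs known from the nervous system were high in salivary gland while most were not. miR-218-5p, a miRNA of motor neurons that is also encoded within the Slit genes, stood at 5234 CPM (5137 to 5333), close to spinal cord with 5932 and brain with 7115. Eye had 1496, kidney 1127 and lung 770, and liver was lowest with 33.4. Salivary gland was thus the third of the 12 tissues, 13.8-fold above the median. That ratio was 9.11 without any 1 of heart, liver, smooth muscle, spleen or stomach, and 6.79 without smooth muscle and testis. miR-135a-5p stood at 1220 CPM, behind spinal cord with 6366, eye with 4667 and brain with 3098, ahead of testis with 371, and far above the remaining 7 tissues, which lay between 3.46 and 41.2 CPM. Its ratio to the median was 38.2.

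The general neuronal miRNAs did not follow. miR-124-3p, the most abundant neuronal miRNA of many brain regions, had 476 CPM in salivary gland, 0.956% of the brain level and 2.36% of the spinal cord level. miR-9-5p was at 0.868% of brain, miR-128-3p at 0.833%, miR-137-3p at 0.733%, miR-138-5p at 0.742% and miR-132-3p at 0.741%. By contrast miR-218-5p was at 73.6% of brain and 88.2% of spinal cord, and miR-135a-5p at 39.4% and 19.2%. In between were miR-129-5p at 7.33% and miR-129-2-3p at 5.58% of brain. Read against miR-124-3p in the same library, miR-135a-5p had 2.56 reads per read in salivary gland, against 0.0622 in brain, 0.315 in spinal cord and 0.0507 in eye. The remaining 8 tissues, some with few reads of either, had 0.172 (smooth muscle) to 1.37 (spleen). For miR-218-5p the same ratio was 11.0 in salivary gland, 0.143 in brain and 0.293 in spinal cord. It was higher than in salivary gland in heart, at 56.2 with 16 reads of miR-124-3p, in lung, at 32.7, and in kidney, at 13.2. Of the 12 neuronal names, miR-218-5p and miR-124-3p (5.45-fold) were at least 4-fold above the median, miR-212-5p was at least 4-fold below it with 1.92 CPM from 4 reads, against 7.08% and 3.97% of all names, and the median ratio of the list was 0.916, or 1.04 after TMM scaling. Without testis and smooth muscle 4 of the 12 passed the upper rule, among them miR-129-5p, whose 2.89-fold ratio became 29.3.

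The shares of the passenger strands of the miR-218 gene copies differed from brain beyond counting error. Mir218-1 (chr5:48223942-48224051, plus strand) lies in an intron of Slit2 and Mir218-2 (chr11:35616816-35616925, plus strand) in an intron of Slit3, 2 genes for secreted axon guidance ligands. Both give the same miR-218-5p, but the 3p strands printed above differ in sequence. In salivary gland 42 of 47 such 3p reads came from miR-218-1-3p, 89.4% (76.9 to 96.5). The share was 17.2% (12.1 to 23.3) in brain from 192 reads and 50.5% (40.7 to 60.2) in spinal cord from 109 reads, and both intervals lie below that of salivary gland. Lung, at 90.0% (73.5 to 97.9) of 30 reads, and kidney, at 90.0% of 10 reads, had similar shares. The 47 salivary gland reads are few beside 10904 of miR-218-5p. Whether the passenger strand shares equal those of the gene copies was not tested. Of the miR-129 copies, miR-129-2-3p held 93.9% (91.5 to 95.8) of 524 reads in salivary gland and 77.7% (77.1 to 78.3) in brain, with testis at 95.2% (89.1 to 98.4). For miR-135a the passenger strands were too few to tell: miR-135a-2-3p, whose hairpin lies in an intron of the lincRNA Rmst, had 5 salivary gland reads and its counterpart from Mir135a-1 none.

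**Figure D3:**
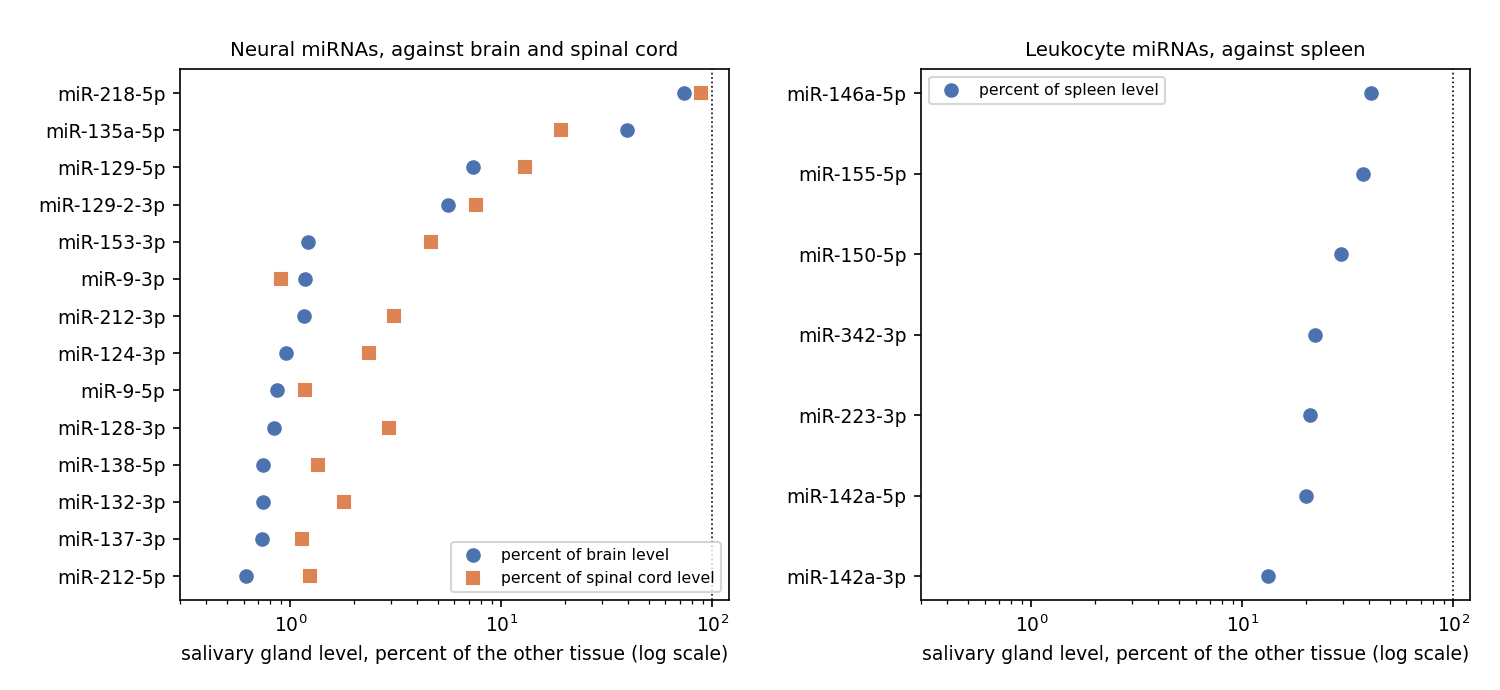
Both panels show the salivary gland level of each miRNA as a percent of its level in a reference tissue, on a log axis with the dotted line at 100%. On the left, against brain (circles) and spinal cord (squares), miR-218-5p and miR-135a-5p lie far to the right of the other neuronal miRNAs, most of which are near 1% of brain. On the right, against spleen, the 7 leukocyte miRNAs lie between 13.3% and 40.8%.

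Of the 7 leukocyte miRNAs, 4 were second only to spleen in salivary gland, and the other three ranged from 0.609 to 2.50 times the median tissue. miR-142a-3p, which is restricted to blood cell lineages, stood at 22623 CPM in salivary gland (22421 to 22825), or 2.26% of reads. Spleen had 170697 CPM and lung 21898, smooth muscle 9114, and the others 259 (eye) to 7463 (stomach). Salivary gland was thus second, close to lung, and 6.57-fold above the median, or 9.75-fold without smooth muscle and testis. The lymphocyte miRNA miR-150-5p had 8243 CPM, again second to spleen with 27986, ahead of stomach with 6144 and lung with 4036. Its ratio to the median was 4.41, and 3.88 without any 1 of eye, heart, kidney, liver or testis.

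The leukocyte members were not at 1 fixed fraction of spleen. miR-146a-5p was at 40.8%, miR-155-5p, which is induced in activated lymphocytes and macrophages, at 37.3%, and miR-150-5p at 29.5%. miR-342-3p was at 22.1%, the granulocyte and monocyte miRNA miR-223-3p at 21.0%, miR-142a-5p at 20.1% and miR-142a-3p at 13.3%. miR-155-5p stood at 716 CPM, second to spleen with 1919 and above heart with 348. miR-223-3p, at 1360 CPM, was only 1.84-fold above the median with 4 tissues above salivary gland, and miR-342-3p, at 535 CPM, was below its median of 878. In all 4 of 7 members, 2 of them arms of mir-142a, were at least 4-fold above the median, against 7.08% of all names, with a median ratio of 4.21, and the list summed to 48218 CPM, 4.82% of reads. The 4 red cell miRNAs had a median ratio of 1.10 to the median tissue, or 2.32 with TMM scaling and 0.673 without testis and smooth muscle, and none was 4-fold above it, or 1 with TMM scaling: miR-451a stood at 20266 CPM against a median of 21179, and miR-486a-5p at 1131 against 1608, while miR-144-3p was higher at 3339 against 1074. The part of blood held in the tissue in the leukocyte result was not tested.

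Most markers of other cell types were near or below the median tissue. The 8 striated muscle names had a median ratio of 0.585, with miR-1a-3p at 2148 CPM and miR-133a-3p at 949, against 174153 and 112141 in heart. Only miR-208a-3p, a cardiac miRNA, was 4-fold above its median, at 27.4 CPM from 57 reads against 5120 in heart. The 4 smooth muscle names had a median ratio of 0.870, which became 1.23 with TMM scaling, with miR-143-3p at 35813 CPM against a median of 37066. Endothelial miR-126a-3p had 10105 CPM against 8567, and the median ratio of both arms of mir-126a was 1.22, or 0.897 without testis and smooth muscle. Of the 5 fibroblast names 4 were below the median, with a median ratio of 0.608, such as miR-214-3p with 143 CPM against 314. The liver miRNA miR-122-5p had 108 CPM against 311546 in liver, and the median ratio of its 2 arms was 0.570. The gut and kidney names summed to 520 CPM, above lung only, with a median ratio of 0.631, and miR-215-5p had 3.36 CPM from 7 reads. The 3 brown fat names, led by miR-378a-3p with 6037 CPM, were 1.41-fold to 2.68-fold above the median, with a median ratio of 1.49.

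All 6 names of the miR-17-92 cluster were within 2-fold of the median, with a median ratio of 1.35. This did not hold without testis and smooth muscle together. There miR-19a-3p was 2.84-fold and miR-19b-3p 2.07-fold above the median, the other members stayed within 2-fold, and the median ratio was 1.76. None of the 21 names from the imprinted Dlk1-Dio3 region passed either 4-fold rule, which 7.08% (above) and 3.97% (below) of all names did. Their sum of 1568 CPM lay between 351 in kidney and 51882 in spinal cord. The miR-34 and miR-449 names of ciliated and germ cells summed to 83.5 CPM against 93298 CPM in testis, and the median ratio of the 6 was 0.641.

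**Figure D4:**
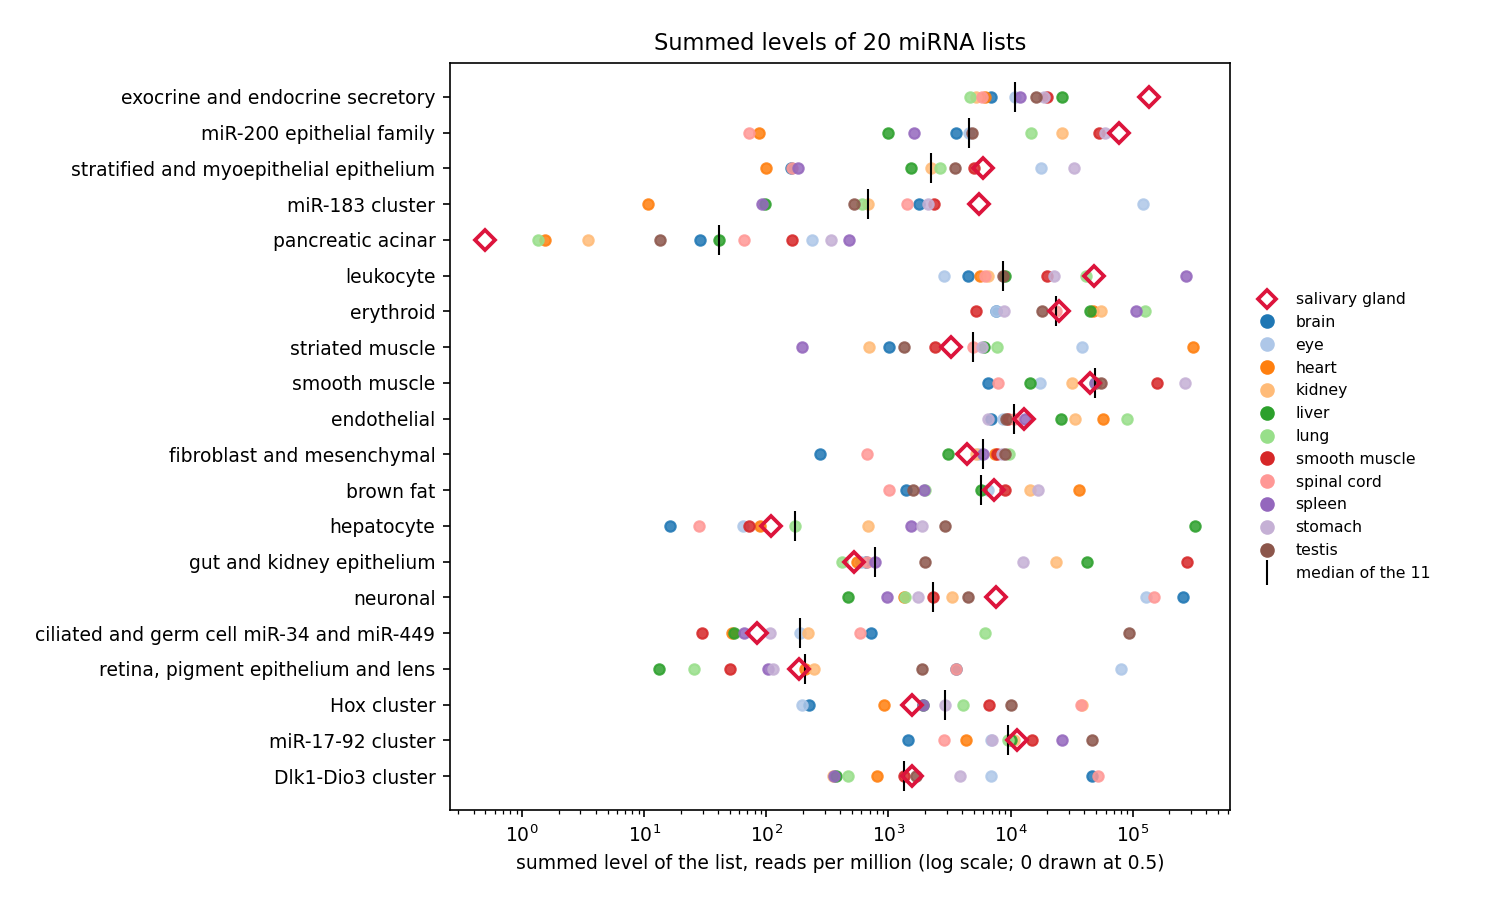
Each row is 1 of 20 miRNA lists and each symbol the summed level of its members in 1 library, in CPM on a log scale, with a sum of 0 drawn at 0.5. Open red diamonds are salivary gland and black bars the median of the 11 others. The diamond is rightmost for the secretory list at 136607 CPM and the miR-200 family at 77776 CPM, second for the miR-183 cluster and the leukocyte list, and at 0 for the pancreatic acinar list.

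Few abundant miRNAs were low in salivary gland. Among names with a median of at least 100 CPM in the other tissues, only miR-802-5p and miR-10a-5p were at least 4-fold below it. miR-802-5p, known from liver, pancreas and gut, had 10.1 CPM from 21 reads against a median of 236. The other tissues fell into a high and a low range: smooth muscle had 2626 CPM, liver 1735, stomach 829, spleen 695, eye 295 and kidney 236, while testis had 33.8 and lung, spinal cord, brain and heart had 1.53 to 6.26. Salivary gland lay below testis and above the 4 lowest tissues. Its ratio of 0.0427 was 0.0748 without any 1 of eye, liver, smooth muscle, spleen or stomach.

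The miR-10 genes sit in Hox clusters and differed from each other. miR-10a-5p stood at 305 CPM (282 to 330) in salivary gland, against 32.3 in eye, the lowest, a median of 1818 and 21359 in kidney. Of the other tissues, eye and brain alone were lower. miR-10b-5p, whose sequence differs at 1 of 23 positions, stood at 1253 CPM against a median of 280, behind spinal cord with 28388, kidney with 13148, testis with 8132 and smooth muscle with 1277. Within the library miR-10b-5p had 4.11 reads for each of miR-10a-5p, and across the other tissues this ratio ran from 0.0529 in liver to 5.52 in testis. The 4.48-fold difference of miR-10b-5p from its median was 2.85 without any 1 of brain, eye, liver, lung or spleen. Reads of such close relatives may be shared by the counting, so the ratio is uncertain. Mir10a lies at chr11:96317165-96317274 and Mir10b at chr2:74726070-74726137, the latter in introns of Hoxd3 and Hoxd4, both on the plus strand. Over the 5 Hox cluster names 1 passed each 4-fold rule, against 7.08% above and 3.97% below among all names, and the median ratio was 0.525. The upward count was 0 with TMM, with size factors and with the embryos added, and with the embryos 4 of the 5 were at least 4-fold below.

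Other abundant names below the median missed the 4-fold mark over all 11 tissues. miR-335-5p had 78.7 CPM against 272, miR-99b-5p 474 against 1412, miR-130a-3p 793 against 2289 and miR-125a-5p 2466 against 5667. miR-351-5p (0.320 of its median), miR-149-5p (0.331), miR-34c-5p (0.390), miR-138-5p (0.405), miR-132-3p (0.410) and miR-328-3p (0.430) completed the 12 lowest by this measure. Leaving out 1 library took 3 of these names past the mark: miR-335-5p reached 0.190 without any 1 of kidney, smooth muscle, spleen, stomach or testis, miR-149-5p 0.223 without liver, lung, smooth muscle, spleen or testis, and miR-132-3p 0.237 without kidney, liver, lung, spleen or testis. The ratio of miR-34c-5p became 0.590 without brain, kidney, lung, spinal cord or testis. Against the lowest other tissue, 1 of 579 names (0.173%) was at least 2-fold lower: miR-130a-5p had 2.40 CPM from 5 reads, against 6.33 in brain and a median of 13.7. Both arms of mir-130a were thus low, but the count of 5 reads leaves the margin to brain uncertain.

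Across all 579 names the profile was most like those of lung and kidney. The Pearson r of log2(CPM + 1) was 0.930 with lung, 0.917 with kidney, 0.910 with stomach and 0.898 with spleen. It was 0.839 to 0.890 with smooth muscle, liver, heart and eye, 0.704 with brain, 0.683 with spinal cord and 0.529 with testis. These values describe the libraries across miRNAs, which are not independent replicates, and the part of its low depth in the value of testis was not tested.

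Arm usage in salivary gland followed the other tissues closely. Usage was measured as the 5p share, the percent of all reads of a hairpin that came from its 5p arm, and 194 hairpins had at least 20 reads in salivary gland and in at least 8 other tissues. The median distance from the median share of the others was 0.637 percentage points, and 160 hairpins lay within 5 points. The 5p arm held the majority in 104 hairpins and the 3p arm in 89, with 41 reads on each arm of mir-299a. Only 3 hairpins had another majority arm than the median tissue: mir-136 with 55.1% against 44.8%, mir-376b with 36.6% against 50.6% and mir-501 with 43.2% against 51.8%. None of these was particular to salivary gland. Lung, spleen and stomach also had a 5p majority for mir-136, and liver had equal reads from both arms. Eye, liver, smooth muscle, spleen and stomach also had a 3p majority for mir-376b. The remaining tissues had the opposite majority for mir-136 and mir-376b. Testis also had a 3p majority for mir-501. mir-324, the hairpin that the series is about, had a 5p share of 43.5% (39.4 to 47.7, 579 reads), near its median of 46.5% and inside the range of 26.3% in stomach to 63.1% in spinal cord.

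By value, the 5p shares of 27 hairpins lay outside the range of the other tissues, 14 above and 13 below. For 1 hairpin of 194 (0.515%) the 95% interval did not overlap that of any other tissue. mir-30a, at chr1:23272269-23272339 on the plus strand, gave 95.2% of its 42195 reads from the 5p arm (95 to 95.4) in salivary gland. Lung had 94.5% (94.3 to 94.6), spleen 94.4% (93.9 to 94.8), liver 94.0%, the median was 91.8%, and spinal cord was lowest with 86.8%. The step above lung was thus small, and it did not hold with 99% intervals. In terms of the minor strand, miR-30a-3p made up 4.77% of the hairpin in salivary gland. Without testis, the intervals of mir-29c and mir-322 also lay outside those of all others: mir-29c had a 5p share of 0.779% (0.701 to 0.864) against 0.993% in liver, the next, and mir-322 had 94.1% (92.5 to 95.4) against a median of 86.8%.

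For 7 of 194 hairpins (3.61%) the 5p share was at least 10 points from the median. The best covered was mir-362, with 20.1% (18.7 to 21.6) of 3080 reads against a median of 32.6%, close to spleen with 20.7% and testis with 19.3%. mir-136 has been given above, and mir-376b had 36.6% (29.2 to 44.5) of 164 reads. mir-296 had 51.7% (43.3 to 60.0) of 147 reads against 74.1%, with smooth muscle lower still at 44.4%. mir-299a had 41 of 82 reads on the 5p arm (38.7% to 61.3%) against a median of 74.4%, and mir-34b 88.0% (75.7 to 95.5) of 50 reads against 57.5%, next to spleen with 88.4%. mir-505, with 4.0% of 25 reads, rests on 1 read from the 5p arm and has an interval of 0.101 to 20.4.

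The hairpins that led the profile kept their usual arm. The 3p strand held 99.8% of mir-148a and 99.3% of mir-152 reads in salivary gland, and the 5p shares of 0.166% and 0.749% were close to the medians of 0.186% and 0.763%. mir-141 had a 5p share of 1.12% (1.0 to 1.24), like lung with 1.11% (0.902 to 1.34), against 5.89% (5.35 to 6.48) in smooth muscle and 4.26% (3.56 to 5.05) in stomach. Accordingly miR-141-5p, at 166 CPM, was below its 236 CPM in smooth muscle although miR-141-3p was 3.90-fold above it. mir-142a had a 5p share of 32.5% (32.2 to 32.9) in salivary gland, with intervals above those of spleen, at 24.2% (24.0 to 24.3), and lung, at 26.1% (25.8 to 26.4). Eye, with 34.4% (31.5 to 37.5), and spinal cord, with 31.0% (29.2 to 32.8), could not be told apart from it at their depth.

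**Figure D5:**
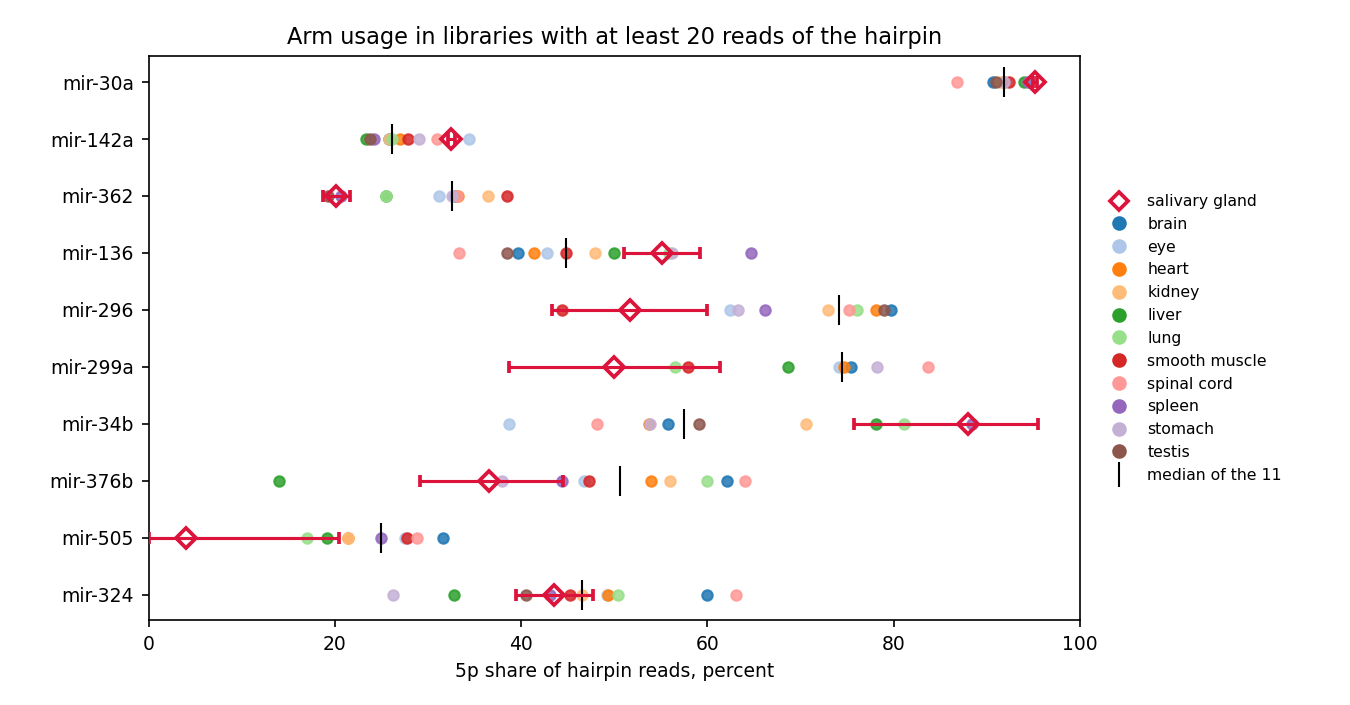
Each row is 1 hairpin and each symbol the percent of its reads from the 5p arm in 1 library, where the library had 20 or more of them. Open red diamonds are salivary gland with exact 95% counting intervals, and black bars the median of the other tissues. mir-30a lies at the right end of a narrow range, mir-142a and mir-362 lie to one side of most tissues with short intervals, and mir-34b, mir-299a, mir-296 and mir-505 lie far from the median with wide intervals.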

How the data were processed

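The files hold counts of reads per mature miRNA name, deposited by the authors without normalization, 1 file per library. Per the labels' protocols, total RNA was mixed with synthetic spike-in RNAs, a gel was used to select small RNAs, which were ligated to randomized adapters and sequenced on a MiSeq. Per the submitters' processing notes, bcl2fastq 1.8.4, cutadapt, BWA, bedtools and the build mm10 were used. No source used here states the miRNA annotation or how reads with several mapping places were counted. Names not listed were taken as 0. The values of 5 pairs of names, among them miR-669a-3p and miR-669o-3p, are uncertain because their counts were equal in each of the 12 libraries.

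Levels are counts divided by the library total (CPM). Names with a mean CPM of at least 10 held 99.94% of salivary gland reads and at least 99.70% elsewhere. A count of 0 was set to 3 reads in ratios. Shares have Clopper-Pearson intervals, and ratios of shares exact conditional binomial ones. Named were the 10 most abundant miRNAs, the 12 highest against the highest and against the median tissue at 100 CPM or more, the 12 lowest against a median of at least 100 CPM, members of 20 lists, and hairpins outside the other tissues or among the 8 farthest from the median share. Others were named after their values were seen, among them miR-129-2-3p, miR-152-5p, miR-130a-5p and miR-362-5p. The members and lists were chosen with earlier results of these data known. Alternatives were TMM (edgeR 4.0.16) and DESeq2 1.42.0 size factors, used for scaling only, other filters, each other library left out, and the 3 embryo libraries added. For the 17-day embryo the title and source of the labels give different days, and the title was used. The counting of names past each rule was tested on simulated data. There the other tissues shared the same mean profile and differed by counting error alone, so the test does not cover real differences between tissues. Calculations used Python 3.11.15, scipy 1.17.1 and R 4.3.3. Sequences came from RefSeq tables for GRCm38.p6, where 499 of 579 names matched, and positions from the GENCODE annotation of that build.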

Additional observations from a re-analysis of the deposited data

How the results depend on the processing

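No paired analysis was possible because each tissue has 1 library. The 5 miRNAs at least 2-fold above the highest other tissue were the same 5 with TMM scaling and with size factors. Without testis and smooth muscle miR-200a-3p joined them. All 5 were kept when any 1 other library was left out, where the count ran from 5 to 7, and with the embryos added miR-152-5p was lost. With no filter there were 8 and at a mean of at least 100 CPM 3. The count 4-fold above the median was 26 at a mean of at least 100 CPM and ran from 30, without heart, to 43 with 1 library left out. The count 4-fold below was 8 at a mean of at least 100 CPM and 56 with the embryos added, and ran from 22 to 34. The count 2-fold below the lowest was 0 with TMM, 0 with size factors, 3 with no filter and 0 at a mean of at least 100 CPM, and ran from 1 to 2. Hairpins with an interval outside those of all other tissues numbered 0 with 99% intervals and 3 without testis and smooth muscle, and ran from 1 to 3. Hairpins at least 10 points from the median numbered 3 at a minimum of 100 reads, 11 with the embryos added and 11 without testis and smooth muscle, and ran from 6 to 10. Of the names past a 4-fold rule 64.1% were above the median, against 46.9% without heart and 33.3% with the embryos added. The cause of these moves was not tested, beyond the smaller number of names or reads that a stricter filter leaves. Of 1140 values of 38 single names under the alternatives, 704 stayed within the counting interval, 435 moved beyond it and 1 reversed. A ratio to the highest other tissue cannot change when a library other than the highest is left out. Many of the 704 were thus fixed in advance, and their number is no measure of stability. Only values at least 4-fold from the median or 2-fold from the highest tissue could count as reversed. Closer values that changed sides are among the others: miR-141-5p was 0.703 of smooth muscle, and 1.21-fold above stomach without that library. The reversed value was the log2 ratio of miR-142a-5p to the highest other tissue. It was 0.50 without spleen and -2.32 when any other single library was left out. Depth limits testis most, where 3 reads are 20.3 CPM.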
